A study of Mus musculus with 32 samples.

Results

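Interferon regulatory factors (IRFs) and signal transducers and activators of transcription (STATs) are the DNA-binding proteins through which microglia and other macrophages turn bacterial products, interferons and cytokines into gene expression. The 9 genes described here are *Irf1*, *Irf3*, *Irf5*, *Irf7*, *Irf8*, *Irf9*, *Stat2*, *Stat3* and *Stat6*. They were selected by symbol from the 45706 genes of the deposited table, and all 9 were found. Their levels were measured in BV-2 cells, an immortalised mouse microglial line with a wild-type genotype, across 32 RNA sequencing libraries in 8 groups of 4. Cells were transfected with a scramble control or with a mimic, a synthetic RNA duplex that supplies a mature microRNA (miRNA). The mimics were those of miR-146a-5p, miR-29a-3p and miR-7a-5p. Each of these 4 transfections was combined with vehicle (VEH) or with 10 ng/ml lipopolysaccharide (LPS, a component of the outer membrane of Gram-negative bacteria) for 24 h. The labels and the study's methods give opposite orders for LPS and transfection. The replicates are described as independent experiments, and all libraries come from 1 cell line.

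LPS is sensed by Toll-like receptor 4, whose adaptors activate the latent factors IRF3, IRF5 and IRF7. IRF3 and IRF7 switch on type I interferon genes, and secreted interferon then acts through its receptor and Janus kinases to bring STAT2 and IRF9 together in the complex ISGF3, which binds interferon-stimulated response elements (ISRE). IRF8 is a lineage factor of macrophages and microglia, IRF1 is a classical interferon-induced factor whose gene is controlled through gamma-activated sites (GAS), STAT3 mediates signals of the IL-6 and IL-10 families, and STAT6 mediates those of IL-4 and IL-13.

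Levels are given as CPM, the count of a gene relative to the total of its library in mega counts (M), after TMM scaling of library size, a correction that makes most genes level between libraries. A gene was called in a comparison when limma-voom gave an adjusted p below 0.05 and an absolute log2 fold change above 0.3. Library totals ranged from 1.13 M to 20.7 M counts, and 3 counts, taken as the limit of detection, amounted to 0.145 to 2.65 CPM. Small structural RNAs held 33.4% to 36.8% of the counts in replicates 2 to 4 of VEH_miR-7a, against 2.49% to 17.3% in the other libraries. Of 15 macrophage and microglia markers, 12 averaged 5 CPM or more, while *C1qa*, *Cx3cr1* and *Tmem119* were below that level. The labels name the cells glioblastoma, yet the 6 astrocyte markers summed to at most 2.44 CPM in any library against at least 2788 CPM for the macrophage and microglia markers. The macrophage and microglia sum ranged from 4640 to 7046 CPM in VEH_scramble and from 3578 to 4503 CPM in LPS_scramble, and its part in the differences between them was not tested. The 5 markers each of neurons, oligodendrocytes, fibroblasts and lymphocytes summed to at most 3.01, 17.8, 2.44 and 0.814 CPM, and no marker was at 0 in every library.

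The mature sequences of the 3 transfected miRNAs are shown because each recognises its targets mainly through the seed, bases 2 to 8, which is in capitals. They come from RefSeq and share no seed.
mmu-miR-7a-5p: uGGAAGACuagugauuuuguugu
mmu-miR-29a-3p: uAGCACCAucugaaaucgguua
mmu-miR-146a-5p: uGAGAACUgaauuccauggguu

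The 3′ untranslated regions of the 9 genes were searched for 7-base seed matches, which pair with bases 2 to 8 or with bases 2 to 7 followed by an A in the transcript, in 1 coding transcript per gene of the GENCODE M21 annotation (GRCm38). Only *Irf3* and *Stat2* held any. A miR-7a match was found in 19.9% of 21683 coding genes, a miR-29a match in 13.9% and a miR-146a match in 15.6%. Of the 9 genes, 2 held a miR-7a match, 0 a miR-29a match and 1 a miR-146a match. The *Irf3* site begins 93 bases after the stop codon. In *Stat2* the miR-146a match begins 474 bases and the miR-7a match 481 bases after it, so that both lie side by side. The matches are in capitals, and each of the 3 stretches lies within a single exon.
Irf3, miR-7a match, chr7:45002431-45002446, plus strand: aaggctcaGTCTTCCc
Stat2, miR-146a match, chr10:128291839-128291854, plus strand: ggcccttcAGTTCTCt
Stat2, miR-7a match, chr10:128291846-128291861, plus strand: cagttctcTCTTCCAg

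Promoters from RefSeq (GRCm38.p6), 250 bases before to 50 bases after each annotated start, were searched on both strands for an ISRE, taken as GAAA, any 2 bases and GAAA, and for a GAS written as TTCNNNGAA. The ISRE letters were in 3.44% of 32851 promoters and the GAS letters in 8.3%. Of the 9 genes, *Stat2* alone held the ISRE letters, at position -222 from its start on the opposite strand. *Irf1* held 1 GAS match, at position -90, and *Irf8* held 2, at positions -171 and -153. The promoters of *Irf3*, *Irf5*, *Irf7*, *Irf9*, *Stat3* and *Stat6* held neither set of letters in these windows. The promoters with a match are shown with it in capitals, because *Stat2* was the gene called between a mimic and scramble without a replicate block, whereas *Irf1* and *Irf8* were not called between LPS and vehicle in any transfection.
Stat2 promoter, chr10:128270248-128270547, plus strand: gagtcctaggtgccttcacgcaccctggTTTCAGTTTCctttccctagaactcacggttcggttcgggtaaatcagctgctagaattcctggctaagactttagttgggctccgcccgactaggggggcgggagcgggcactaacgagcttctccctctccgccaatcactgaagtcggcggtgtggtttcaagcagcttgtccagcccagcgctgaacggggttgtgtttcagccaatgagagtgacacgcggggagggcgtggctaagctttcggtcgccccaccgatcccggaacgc
Irf1 promoter, chr11:53769764-53770063, plus strand: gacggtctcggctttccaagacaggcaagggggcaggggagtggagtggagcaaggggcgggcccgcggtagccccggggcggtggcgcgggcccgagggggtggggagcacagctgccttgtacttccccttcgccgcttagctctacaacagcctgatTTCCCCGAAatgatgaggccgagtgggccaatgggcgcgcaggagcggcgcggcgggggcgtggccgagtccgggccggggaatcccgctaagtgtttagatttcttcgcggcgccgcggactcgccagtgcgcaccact
Irf8 promoter, chr8:120736108-120736407, plus strand: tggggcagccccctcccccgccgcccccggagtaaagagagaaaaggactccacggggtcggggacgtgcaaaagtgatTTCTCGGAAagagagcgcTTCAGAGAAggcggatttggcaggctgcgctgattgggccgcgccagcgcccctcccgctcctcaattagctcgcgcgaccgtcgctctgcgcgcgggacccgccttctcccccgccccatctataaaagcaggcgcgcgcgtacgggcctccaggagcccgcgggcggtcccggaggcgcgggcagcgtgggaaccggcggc

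All 9 genes were detected in every library, with restored counts of 10 or more. Compared per kilobase of annotated exon, *Irf5*, *Stat6* and *Irf8* were the highest in vehicle scramble cells, at 40.3 ± 5.30, 38.8 ± 4.15 and 31.7 ± 9.98 CPM per kilobase (SD, n = 4). The spreads of these 3 overlapped. *Irf1* followed at 11.4 ± 2.36, *Stat3* at 7.78 ± 1.29, *Irf3* at 7.32 ± 1.03 and *Irf7* at 5.60 ± 2.50 CPM per kilobase, and *Stat3*, *Irf3* and *Irf7* lay within their spread of each other. *Stat2* at 4.03 ± 0.762 and *Irf9* at 3.34 ± 0.395 CPM per kilobase closed the order, both within the spread of *Irf7*. After LPS, *Irf7* moved from the seventh place to the first, at 77.2 ± 18.8 CPM per kilobase. The order was not recomputed with lost decimals restored from gene levels alone, under which the log2 change of *Irf7* with LPS was smaller, at 2.14 against 3.86.

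**Figure D1:**
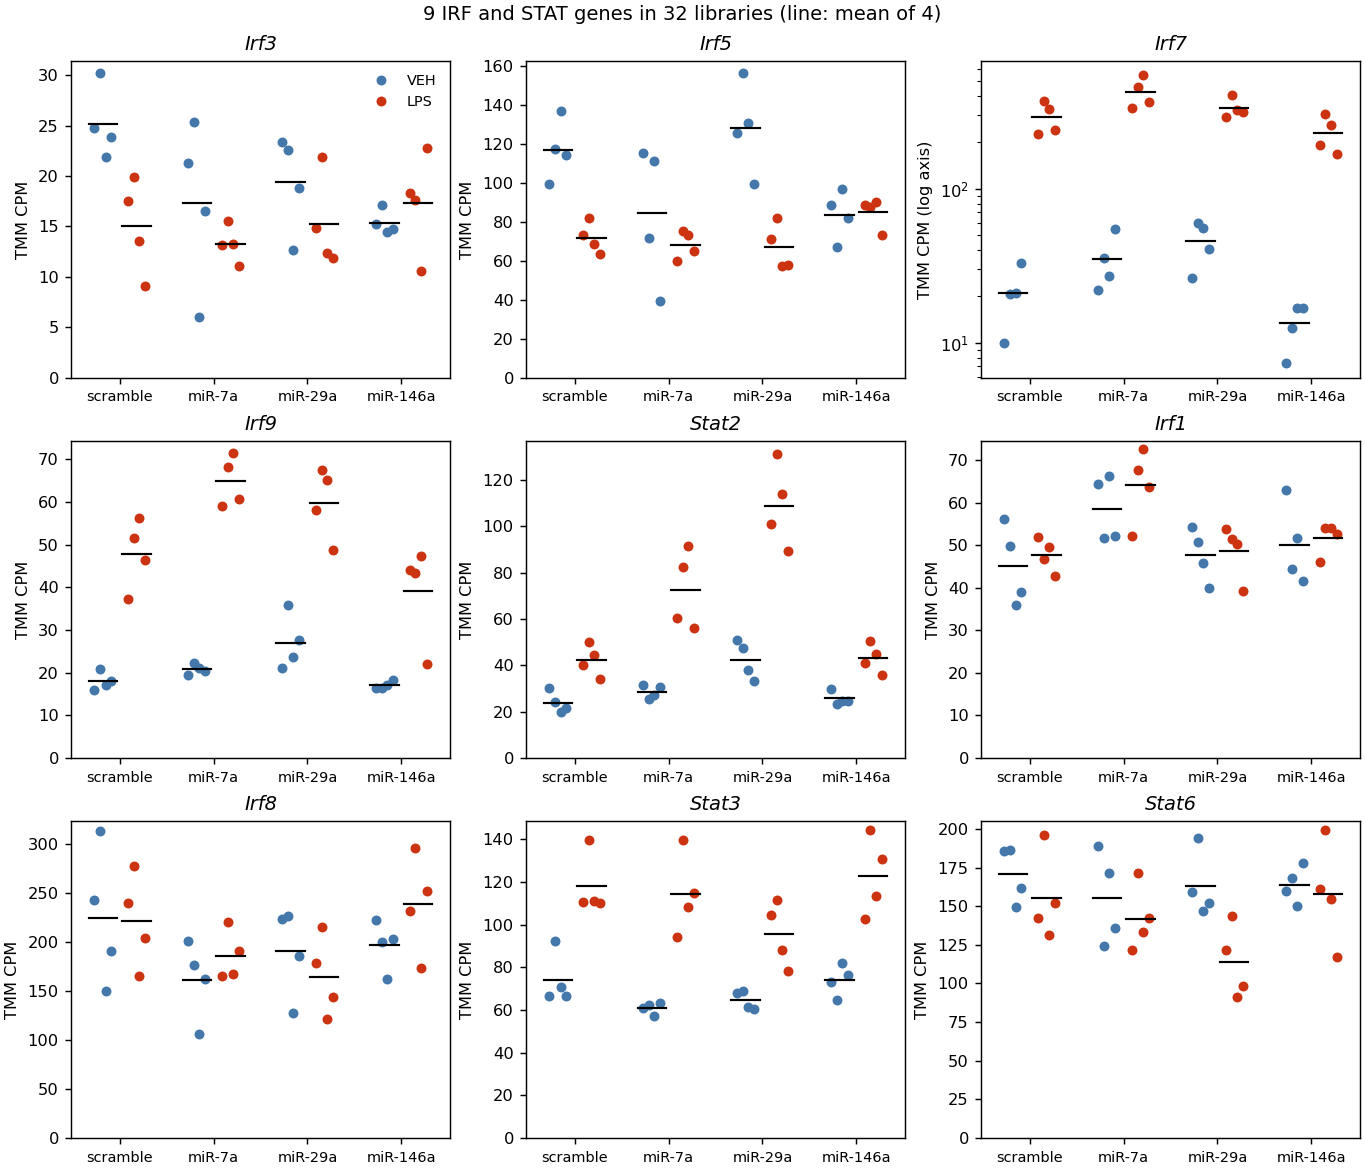
Each point is 1 library, and each panel is 1 gene with its TMM-scaled CPM on the vertical axis (logarithmic for Irf7, starting at 0 for the others) and the transfection on the horizontal axis, vehicle in blue, LPS in red, the line marking the mean of 4 libraries. Irf7, Irf9, Stat2 and Stat3 lie higher under LPS with no overlap in any of the 4 transfections, whereas Irf1 and Irf8 overlap throughout.

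The first question was how LPS changed these factors in scramble-transfected cells. LPS raised 4 of the 9 genes, *Irf7*, *Irf9*, *Stat2* and *Stat3*, and lowered 2, *Irf3* and *Irf5*, while *Irf1*, *Irf8* and *Stat6* were not called. Over all 11980 genes tested 9.28% were called higher and 8.21% lower, and the median log2 fold change was 0.10 for the 9 genes and 0.01 for all genes. In these bulk libraries a larger share of expressing cells and more RNA per cell cannot be told apart.

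Among the factors directly activated by Toll-like receptors, *Irf7*, the factor that amplifies interferon production, gave the largest fold change of the 9. Its level was 9.91, 20.8, 20.9 and 33 CPM in the 4 VEH_scramble libraries and 225, 372, 331 and 239 CPM in the 4 LPS_scramble libraries. The lowest LPS library was far above the highest vehicle library. The log2 fold change was 3.86 ± 0.32 (SE), a 14.6-fold rise (adjusted p = 6.39e-05). The deposited counts had lost their decimal marks, and when these were restored from gene levels alone, as the reading closest to the level of the gene over the whole table, the log2 fold change of *Irf7* was 2.14 and was not called (adjusted p = 0.0983).

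*Irf5*, which drives inflammatory cytokine genes downstream of MyD88, moved in the opposite direction. It was at 99.4, 118, 137 and 114 CPM under vehicle and at 73.2, 82.3, 69.0 and 63.7 CPM under LPS. The groups did not overlap, and *Irf5* fell by 0.68 ± 0.14 on the log2 scale (adjusted p = 0.00939). *Irf3*, the factor that starts interferon transcription, was at 24.8, 30.2, 21.9 and 23.9 CPM under vehicle and 17.5, 19.9, 13.5 and 9.15 CPM under LPS, again with no overlap. It fell by 0.84 ± 0.24 on the log2 scale (adjusted p = 0.0377). This call was the least secure of the 6, because it was lost when any 1 library other than LPS_scramble replicate 2 was left out (adjusted p from 0.0523 without VEH_scramble replicate 1 to 0.112 without LPS_scramble replicate 4), without the filter on low counts (0.0592) and with decimals restored from gene levels alone (0.0605).

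Both ISGF3 genes of the set rose. *Irf9*, its DNA-binding subunit, was at 15.8, 20.8, 17.1 and 18.1 CPM under vehicle and 37.1, 51.5, 56.2 and 46.5 CPM under LPS, a log2 fold change of 1.46 ± 0.17 (adjusted p = 0.000385). *Stat2*, its partner subunit, was at 30.1, 24.3, 19.8 and 21.3 CPM under vehicle and 40.3, 50.1, 44.5 and 33.9 CPM under LPS, a log2 fold change of 0.83 ± 0.18 (adjusted p = 0.0115). Every LPS library exceeded every vehicle library for both genes, by a wider margin for *Irf9*. *Irf9* overlaps *Rnf31* on the same strand, and *Irf8* overlaps *Gm20388* on the same strand, so part of their counts may depend on how shared reads were assigned.

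*Stat3* also rose, from 66.6, 92.3, 70.9 and 66.5 CPM to 111, 140, 111 and 110 CPM, a log2 fold change of 0.70 ± 0.15 (adjusted p = 0.00991). The 4 LPS libraries all lay above the highest vehicle library, and replicate 2 was the highest in both groups. *Stat6* was at 186, 187, 150 and 162 CPM under vehicle and at 142, 196, 131 and 152 CPM under LPS. These groups overlapped, with a log2 fold change of -0.13 and a 95% interval from -0.47 to 0.21.

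*Irf1* and *Irf8* did not pass the test. *Irf1* was at 56.1, 49.8, 36 and 39 CPM under vehicle and at 51.8, 46.7, 49.4 and 42.7 CPM under LPS (log2 fold change 0.10, 95% interval -0.26 to 0.46). *Irf8* was at 242, 313, 150 and 190 CPM under vehicle and at 239, 278, 166 and 203 CPM under LPS (log2 fold change 0.03, 95% interval -0.48 to 0.54). The *Irf8* libraries kept the same order of replicate numbers in both groups, with replicate 2 highest and replicate 3 lowest.

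**Figure D2:**
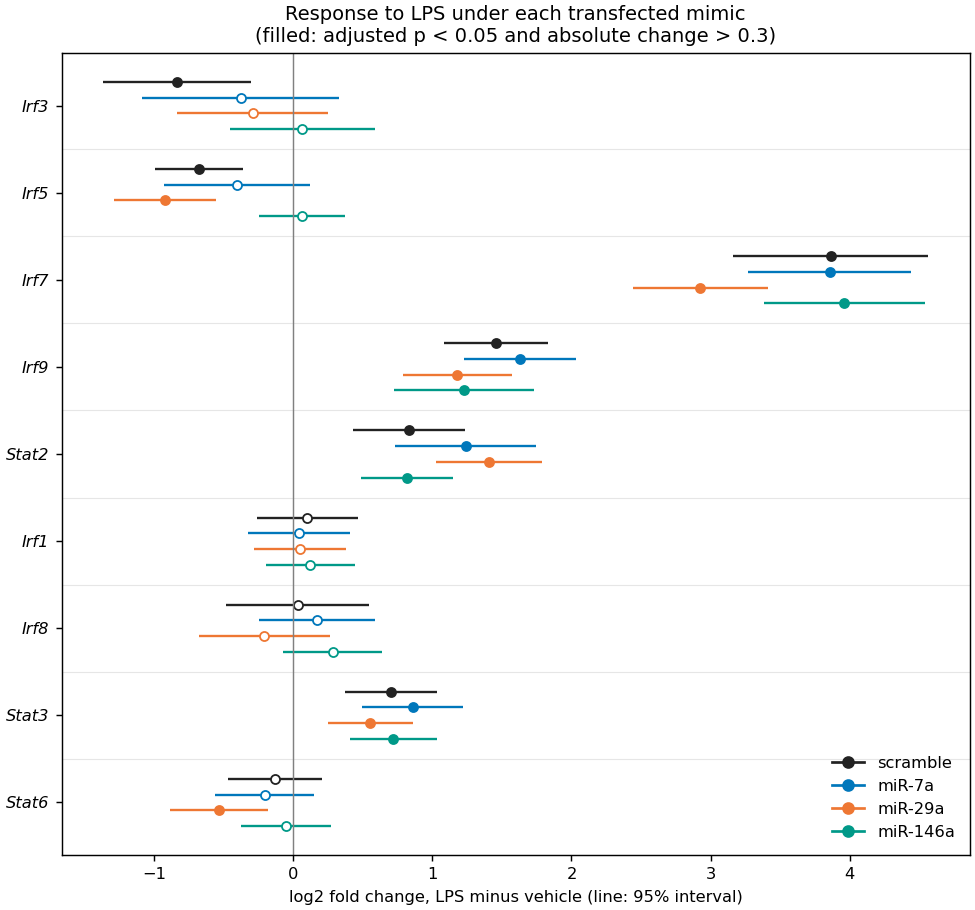
The horizontal axis is the log2 fold change of LPS over vehicle, the vertical axis the 9 genes, and the colours the 4 transfections, with lines for 95% intervals and filled points for genes called. Irf7, Irf9, Stat2 and Stat3 are filled and to the right of 0 in all 4, and Irf3 is filled in scramble cells alone.

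The same comparison was made within each mimic, each against its own vehicle group. *Irf7*, *Irf9*, *Stat2* and *Stat3* were called higher in all 3. In miR-7a cells these 4 were the only calls and none was lower (2.7% of 11684 genes called higher, 3.92% lower). In miR-29a cells *Irf5* and *Stat6* were called lower in addition (13.3% of 11932 genes higher, 12.9% lower). In miR-146a cells the same 4 genes were again the only calls (2.88% of 11842 genes higher, 1.46% lower).

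*Irf7* rose from 21.9, 35.2, 27.1 and 54.6 CPM to 335, 458, 543 and 365 CPM in miR-7a cells (log2 fold change 3.86 ± 0.27, adjusted p = 1.63e-05). It rose from 26.1, 59.4, 55.9 and 40.7 CPM to 291, 407, 322 and 315 CPM in miR-29a cells (2.93 ± 0.22, adjusted p = 1.93e-05). It rose from 7.33, 12.5, 16.9 and 16.7 CPM to 191, 305, 257 and 169 CPM in miR-146a cells (3.96 ± 0.27, adjusted p = 4.51e-05). The vehicle levels were highest in miR-29a cells and lowest in miR-146a cells, and no vehicle library reached the lowest LPS library in any transfection. With decimals restored from gene levels alone, *Irf7* was not called in miR-29a cells (log2 fold change 1.25, adjusted p = 0.296) or in miR-146a cells (3.12, adjusted p = 0.120).

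*Irf9* rose from 19.3, 22.1, 21.1 and 20.3 CPM to 59.1, 68.2, 71.4 and 60.6 CPM in miR-7a cells (log2 fold change 1.63 ± 0.18, adjusted p = 0.000567). In miR-29a cells it went from 21.1, 35.8, 23.6 and 27.6 CPM to 58.0, 67.5, 65.0 and 48.6 CPM (1.18 ± 0.18, adjusted p = 0.000966). In miR-146a cells it went from 16.5, 16.3, 17.1 and 18.2 CPM to 44.1, 43.3, 47.2 and 22 CPM (1.23 ± 0.23, adjusted p = 0.01). The fourth LPS_miR-146a library stood well below the other 3 but still above all 4 vehicle libraries.

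*Stat2* rose in miR-7a cells from 31.5, 25.4, 27.1 and 30.5 CPM to 60.3, 82.6, 91.4 and 56.0 CPM (log2 fold change 1.24 ± 0.23, adjusted p = 0.00866). In miR-29a cells it rose from 50.8, 47.4, 37.8 and 33.1 CPM to 101, 131, 114 and 89.3 CPM (1.41 ± 0.17, adjusted p = 0.00029). In miR-146a cells it rose from 29.9, 23.4, 24.6 and 24.8 CPM to 40.9, 50.6, 44.7 and 35.8 CPM (0.82 ± 0.15, adjusted p = 0.00969). The vehicle libraries of miR-29a cells, at 33.1 to 50.8 CPM, covered the range of LPS-treated scramble cells. With decimals restored from gene levels alone, *Stat2* was not called in miR-29a cells (log2 fold change 0.54, adjusted p = 0.599). Without VEH_miR-146a replicate 3 the calls of *Irf9* and *Stat2* in miR-146a cells were both lost (adjusted p = 0.0542), leaving 2 of the 4 genes called there.

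*Stat3* rose by 0.86 ± 0.17 on the log2 scale in miR-7a cells (adjusted p = 0.0103), by 0.55 ± 0.14 in miR-29a cells (adjusted p = 0.0144) and by 0.72 ± 0.14 in miR-146a cells (adjusted p = 0.0150). Its libraries lay at 57.3 to 63.5 CPM under vehicle and 94.0 to 140 CPM under LPS in miR-7a cells, at 60.5 to 69.0 and 78.2 to 112 CPM in miR-29a cells, and at 64.7 to 82.0 and 103 to 144 CPM in miR-146a cells. None of these pairs of ranges overlapped. With VEH_miR-7a replicate 1 as the sole vehicle library of its group, *Irf7* and *Irf9* stayed called in miR-7a cells (adjusted p = 0.0120 and 0.0493) and *Stat2* and *Stat3* did not (0.267 and 0.295, log2 fold changes 1.17 and 0.88). This fit leaves out the 3 libraries rich in structural RNA and assumes that the lone library varies like the others.

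In miR-29a cells *Irf5* was at 126, 157, 131 and 99.4 CPM under vehicle and 71.3, 82.0, 57.2 and 57.8 CPM under LPS, and fell by 0.92 ± 0.17 on the log2 scale (adjusted p = 0.00257). *Stat6* was at 160, 194, 147 and 152 CPM under vehicle and 122, 144, 90.9 and 98.4 CPM under LPS, and fell by 0.53 ± 0.16 (adjusted p = 0.0297). Neither pair of groups overlapped. The macrophage and microglia markers summed to 4643 to 5130 CPM in VEH_miR-29a and to 2788 to 3646 CPM in LPS_miR-29a, and their part in these differences was not tested. The *Stat6* call was lost without VEH_miR-29a replicate 2 (adjusted p = 0.0687), LPS_miR-29a replicate 3 (0.0837) or LPS_miR-29a replicate 4 (0.0741) and without the filter on low counts (0.0548), and that of *Stat3* without VEH_miR-29a replicate 3 (0.0543) or 4 (0.0511).

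*Irf5* was not called in the other mimic groups. In miR-146a cells it was at 88.5, 67.1, 96.9 and 81.9 CPM under vehicle and 88.9, 87.6, 90.2 and 73.6 CPM under LPS (log2 fold change 0.07, 95% interval -0.24 to 0.37). In miR-7a cells the vehicle libraries spread from 39.4 to 115 CPM (log2 fold change -0.41, 95% interval -0.93 to 0.12). *Irf3* was not called with any mimic, its log2 fold changes being -0.38, -0.29 and 0.06 in miR-7a, miR-29a and miR-146a cells. *Irf1* and *Irf8* remained uncalled with each mimic, with log2 fold changes of 0.04 to 0.12 for *Irf1* and -0.21 to 0.28 for *Irf8*.

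Whether the response to LPS itself depended on the mimic was tested as an interaction, the log2 difference between the LPS response with the mimic and with scramble. None of the 9 genes was called in any of the 3 interactions by limma-voom, edgeR or DESeq2. The interactions called 0.00844% of 11849 genes for miR-7a, 0.0168% of 11916 for miR-29a and 0% of 12004 for miR-146a. There were 0, 2 and 2 of the 9 genes at an unadjusted p under 0.05, against 5.34%, 6.52% and 11.3% of all genes. For miR-29a these were *Irf7* (-0.94 ± 0.42, adjusted p = 0.749) and *Stat2* (0.56 ± 0.25, adjusted p = 0.749), the latter at -0.29 with decimals restored from gene levels alone. For miR-146a they were *Irf5* (0.74 ± 0.19, adjusted p = 0.331) and *Irf3* (0.92 ± 0.36, adjusted p = 0.382). The calls of *Irf3* and *Irf5* in some transfections and not in others are therefore not shown to differ.

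The second question was how each mimic shifted these genes relative to scramble. The 3 mimics were compared with the same 4 scramble libraries, so these comparisons are not independent. Replicates of the same number deviated together in all 3 comparisons under LPS and in the miR-29a comparison under vehicle, so the value with the replicate number as a block is given there where it changed a call.

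**Figure D3:**
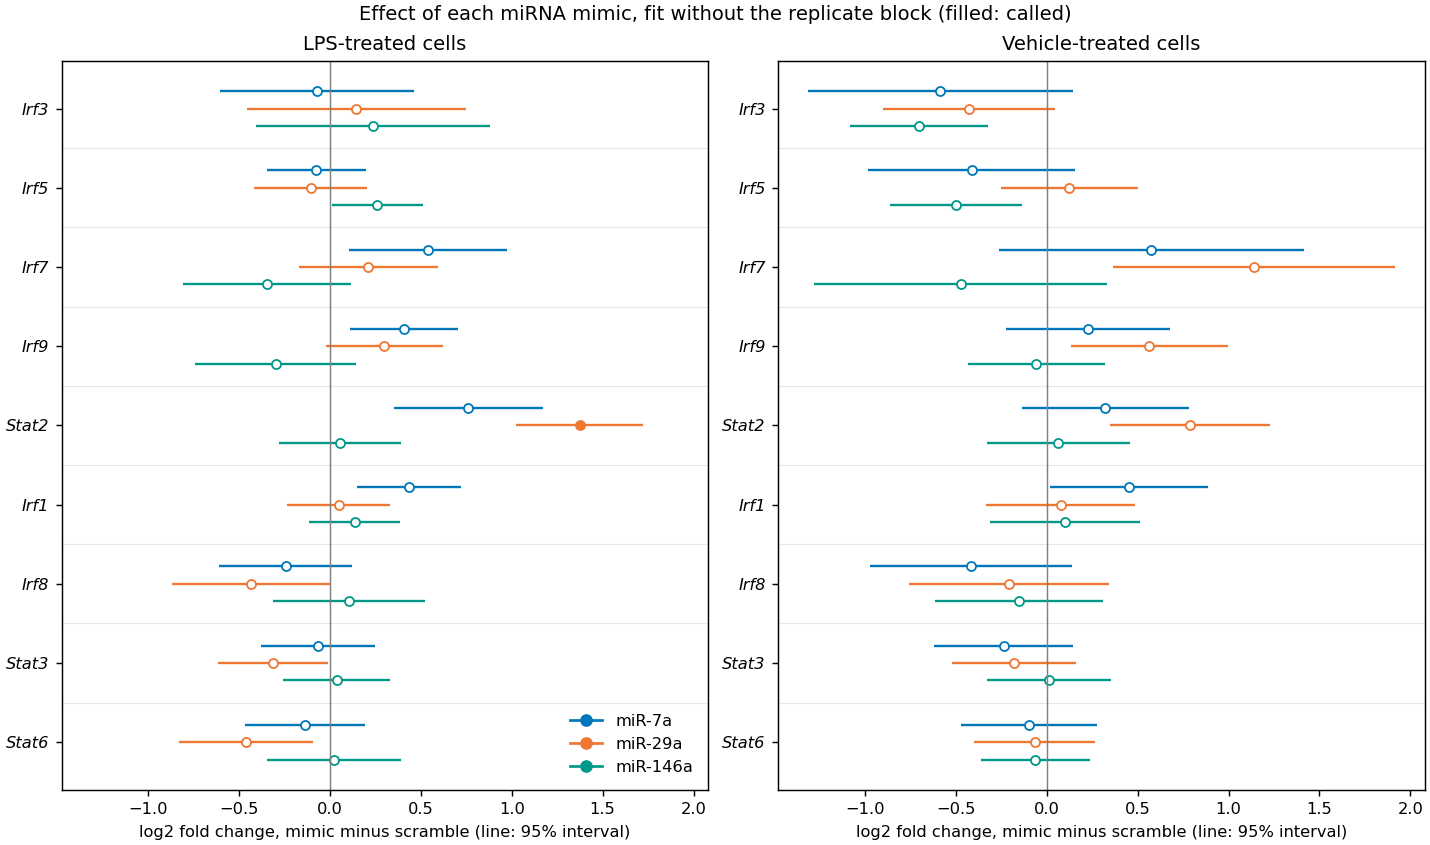
The horizontal axis is the log2 fold change of each mimic over scramble, with lines for 95% intervals, for the 9 genes under LPS (left) and vehicle (right), without the replicate block. Stat2 with miR-29a under LPS is the single filled point, at 1.37.

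Under LPS, *Stat2* was the 1 gene of the 9 called with miR-29a (4.31% of 12917 genes were called). Its 4 libraries, at 101, 131, 114 and 89.3 CPM, all lay above the 4 LPS_scramble libraries, at 33.9 to 50.1 CPM. The log2 fold change was 1.37 ± 0.16, or 2.59-fold (adjusted p = 0.00298), and 0.47 with no call when decimals were restored from gene levels alone (adjusted p = 0.747). With the replicate block 3 genes were called (8.45% of genes): *Stat2* (1.38 ± 0.10, adjusted p = 8.55e-05), and, lower with the mimic, *Irf8* (-0.43 ± 0.08, adjusted p = 0.0111) and *Stat6* (-0.46 ± 0.09, adjusted p = 0.0145). *Irf8* and *Stat6* were lower than the scramble library of the same number in 4 of 4 pairs, although the ranges of the groups overlapped. The macrophage and microglia markers summed to 2788 to 3646 CPM in LPS_miR-29a and to 3578 to 4503 CPM in LPS_scramble, and their part in these differences was not tested.

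With miR-7a under LPS, DESeq2 called 1 of the 9 genes, *Stat2*, and its share of all genes is not given here. By limma-voom (2.17% of 12700 genes) and edgeR 0 of the 9 were called. There were 4 at an unadjusted p under 0.05 (17.2% of all genes), and these 4 were called, all higher, once the replicate number was a block (7.84% of genes): *Stat2* (0.79 ± 0.11, adjusted p = 0.00414), *Irf7* (0.54 ± 0.09, adjusted p = 0.00745), *Irf9* (0.41 ± 0.11, adjusted p = 0.0418) and *Irf1* (0.46 ± 0.12, adjusted p = 0.0478). Without the block *Stat2* was 1.70-fold higher at 60.3, 82.6, 91.4 and 56.0 CPM (adjusted p = 0.0638). With decimals restored from gene levels alone and no block, *Irf7* was at 2.31 on the log2 scale with no call (adjusted p = 0.131). All 4 genes were higher than the scramble library of the same number in 4 of 4 pairs. The *Stat2*, *Irf9* and *Irf1* ranges did not overlap those of scramble, and *Irf7* overlapped at 335 CPM against a highest scramble library of 372 CPM. *Irf1* was at 52.1, 67.8, 72.6 and 63.6 CPM, just above the highest LPS_scramble library at 51.8 CPM.

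With miR-146a under LPS, 0 of the 9 genes were called by limma-voom (2.01% of 12311 genes), edgeR or DESeq2, while 1, *Irf5*, had an unadjusted p under 0.05, as had 17.4% of all genes (0.26 ± 0.11, adjusted p = 0.264). The fit with replicate number as a block called 1 (9.36% of genes), *Irf7*, which was lower with the mimic (-0.35 ± 0.07, adjusted p = 0.0224). Without the block and with decimals restored from gene levels alone, the direction of *Irf7* turned (log2 fold change 0.62, adjusted p = 0.786), so its direction rests on the restoration. Its levels of 191, 305, 257 and 169 CPM were below the scramble library of the same number in 4 of 4 pairs, and the ranges overlapped. *Stat2*, whose transcript holds a miR-146a match, was at 40.9, 50.6, 44.7 and 35.8 CPM, close to scramble (log2 fold change 0.06, 95% interval -0.28 to 0.39). *Irf3*, whose transcript holds a miR-7a match, differed from scramble by -0.07 with miR-7a under LPS (95% interval -0.60 to 0.46). Under vehicle *Irf3* differed by -0.59 with miR-7a (95% interval -1.315 to 0.145). With miR-29a and miR-146a under vehicle it differed by -0.43 and -0.70, and limma-voom called none of these. *Stat2* also holds a miR-7a match and was the higher gene described above for miR-7a under LPS.

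Side by side under LPS, the mean of *Stat2* was 42.2 ± 6.87 CPM with scramble, 43.0 ± 6.24 with miR-146a, 72.6 ± 17.2 with miR-7a and 109 ± 17.9 with miR-29a (SD, n = 4). That of *Irf7* was 231 ± 62.5 with miR-146a, 292 ± 70.9 with scramble, 334 ± 50.5 with miR-29a and 425 ± 94.2 with miR-7a. Both orders hold for the main restoration of decimals. With restoration from gene levels alone, the difference of *Irf7* between miR-146a and scramble turned, and *Stat2* differed from scramble by 0.76 with miR-7a and 0.47 with miR-29a on the log2 scale, the reverse order of these 2 mimics. *Irf9* was with miR-146a at 39.1 ± 11.6, scramble at 47.8 ± 8.16, miR-29a at 59.8 ± 8.44 and miR-7a at 64.8 ± 5.94 CPM. *Stat3* was at 95.6 ± 15.1 CPM with miR-29a and at 114 ± 19.1 to 123 ± 18.4 CPM in the other 3 LPS groups.

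Under vehicle, limma-voom and edgeR called 0 of the 9 genes with any mimic. The background was 0.11% of 10926 genes for miR-7a, 0% of 11387 for miR-29a and 1.65% of 11485 for miR-146a. At an unadjusted p under 0.05 there were 1, 3 and 2 of the 9 genes, against 12.5%, 10.4% and 25.1% of all genes, so the counts for miR-7a and miR-146a are near the background. DESeq2 called 0, 1 and 1, *Stat2* with miR-29a (adjusted p = 0.0445) and *Irf3* with miR-146a (adjusted p = 0.0182). The share of all genes that DESeq2 called is not given here, so these calls cannot be set against a background. With miR-29a the 3 genes at an unadjusted p under 0.05 were *Irf7* (1.14 ± 0.36, adjusted p = 0.328), *Irf9* (0.56 ± 0.20, adjusted p = 0.364) and *Stat2* (0.79 ± 0.20, adjusted p = 0.268), each higher in 4 of 4 pairs. With the replicate block *Stat2* was called (0.80 ± 0.12, adjusted p = 0.0488, 0.237% of genes). With miR-146a *Irf3* was at 15.3, 17.1, 14.5 and 14.7 CPM and *Irf5* at 88.5, 67.1, 96.9 and 81.9 CPM, both below every VEH_scramble library (log2 fold changes -0.70 and -0.50, adjusted p = 0.0603 and 0.101).

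Among further genes of the 2 families, *Irf2*, *Irf4*, *Stat5a* and *Stat5b* were not called between LPS and vehicle in scramble cells. *Stat5b*, a factor of growth factor and cytokine signalling, fell with LPS in miR-29a cells (-0.38 ± 0.11, adjusted p = 0.0284). Against LPS_scramble, *Irf4*, a factor of alternatively activated macrophages, was higher with miR-7a (1.31 ± 0.17, adjusted p = 0.00644).

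The pathway around these factors was followed in 9 further gene lists. Of 13 ligand genes 1, *Osm*, could be tested, and it was called in miR-29a cells, lower with LPS (-1.01 ± 0.26, adjusted p = 0.0157). The log2 fold change of the 1 ligand tested was also below 0, uncalled, with scramble (-0.46), miR-7a (-0.32) and miR-146a (-0.395). Its interaction of miR-29a with LPS was -0.56 and not called, so the responses are not shown to differ. Interferon beta, interferon gamma and IL-10 genes were among those that could not be tested. The counts in scramble cells stand beside 9.28% of all genes called higher and 8.21% lower, and 1 gene in either direction of a list of this size is near that background. Of 17 receptors and Janus kinases, 1 was higher and 1 lower with LPS, *Jak2* (0.94 ± 0.24) and *Il6ra* (-1.24 ± 0.37). Of 19 genes of Toll-like receptor and sensor signalling 4 were higher with LPS and 0 lower, led by *Irak3*, an inhibitory kinase-like protein (1.52 ± 0.24), *Traf6* (0.73 ± 0.20) and the LPS co-receptor *Cd14* (0.79 ± 0.23). Of 15 negative regulators tested 4 were higher, led by *Socs3* (1.75 ± 0.19), *Usp18* (2.15 ± 0.29) and *Ptpn2* (0.76 ± 0.18), and 1 was lower, *Cish*, a STAT5 target (-1.23 ± 0.19). Of 9 partners tested, *Nmi* was higher (0.89 ± 0.26) and *Spi1*, the macrophage factor PU.1, was lower (-0.75 ± 0.22).

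Target genes were followed in 4 of these lists. Of 24 genes with interferon response elements, 17 could be tested in scramble cells and all 17 were called higher with LPS, with a median log2 fold change of 1.85 against 0.01 for all genes tested. The smallest adjusted p belonged to *Oasl2* (4.40 ± 0.30), *Ifit2* (2.84 ± 0.22) and *Xaf1* (3.43 ± 0.26). Of 18 genes with gamma-activated sites or IRF1 sites, 13 were tested and 7 were higher (median 0.92), led by *Gbp2* (6.91 ± 0.68), *Irgm1* (1.31 ± 0.18) and *Cd274* (1.25 ± 0.20), although *Irf1* itself was not called. Of 12 STAT3 targets, 11 were tested and 7 were higher (median 0.70), led by *Lcn2* (9.97 ± 0.47), *Hp* (3.12 ± 0.40) and *Bcl6* (1.21 ± 0.18). Of 12 STAT6 targets, 7 were tested and 5 were lower (median -1.62), among them *Egr2* (-2.32 ± 0.24) and *Mgl2* (-1.62 ± 0.18). Genes at low counts in one group pass the filter through the other, so the lists are described by their counts and were not tested as sets.

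**Figure D4:**
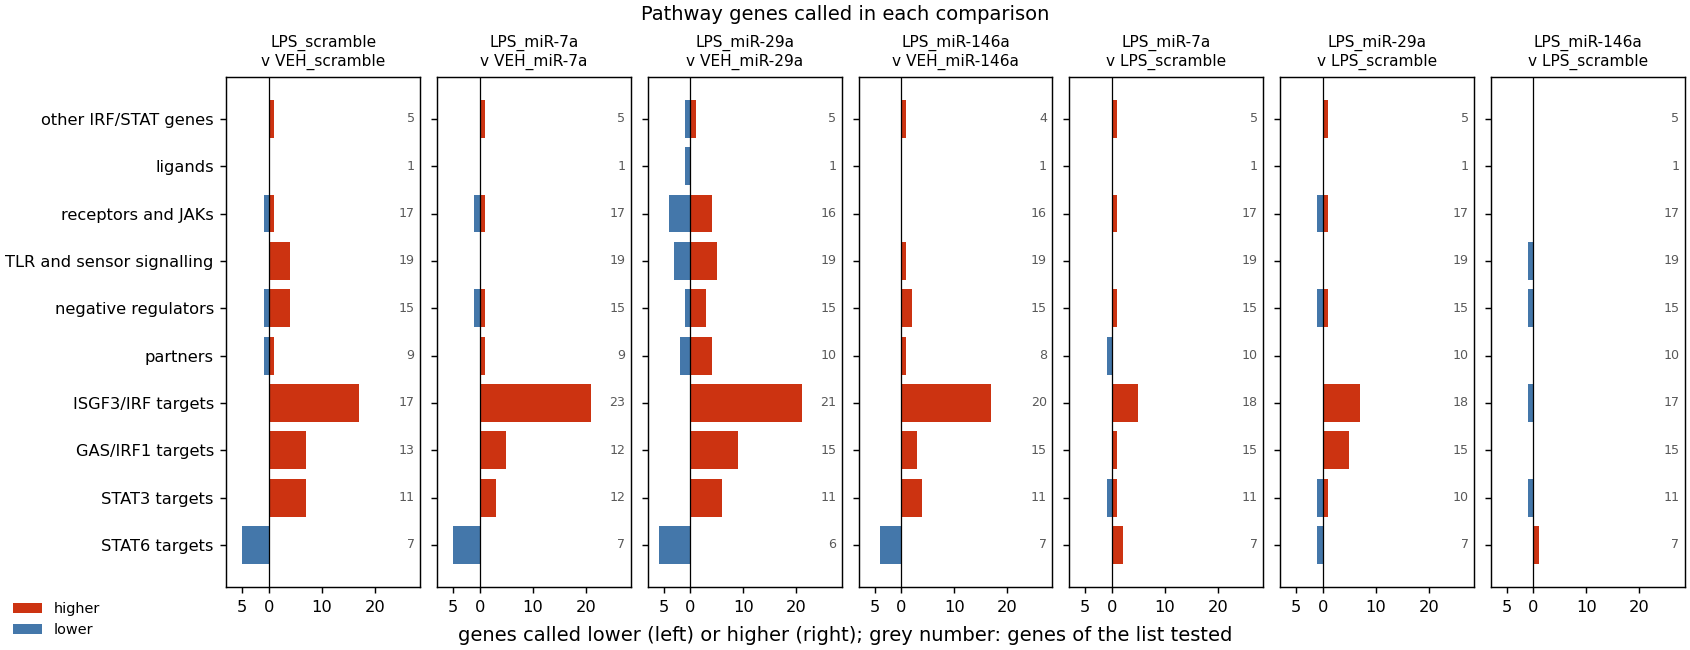
The horizontal axis counts the genes of each list called lower (blue, to the left) or higher (red, to the right) in 7 comparisons, and the grey number is how many genes of the list were tested. The ISGF3 and IRF targets give the longest red bars in the 4 LPS comparisons, 17, 21, 21 and 17 genes, and the STAT6 targets are blue in all 4.

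With the mimics, as above, calls in the lists were made without the replicate block. The response element genes called higher with LPS numbered 21 of 23 tested with miR-7a, 21 of 21 with miR-29a and 17 of 20 with miR-146a, against 2.7%, 13.3% and 2.88% of all genes. Against LPS_scramble, where 2.17%, 4.31% and 2.01% of all genes were called with miR-7a, miR-29a and miR-146a in either direction, 5 of 18 were higher with miR-7a, led by *Ifi44* (1.76 ± 0.28), *Ifit2* (1.49 ± 0.27) and *Rsad2* (1.52 ± 0.30). With miR-29a 7 of 18 were higher, led by *Herc6* (1.35 ± 0.17), *Rsad2* (1.65 ± 0.26) and *Ifit2* (1.55 ± 0.25). With miR-146a 1 of 17 was called, *Xaf1*, which was lower (-0.91 ± 0.17). The medians of this list were 0.76, 0.82 and -0.36 against 0.01, 0.01 and -0.01 for all genes. Of the genes with gamma-activated sites, 5 of 15 were higher with miR-29a, led by *Gbp7*, *Gbp3* and *Gbp5*, and 1 and 0 of 15 with miR-7a and miR-146a. A single call in a list of this size is little above that background. Of 15 negative regulators tested with miR-29a, 1 was higher, *Usp18*, the interferon receptor inhibitor that binds STAT2 (1.2 ± 0.19, adjusted p = 0.0121). In that list 1 was lower, *Cish* (-0.92 ± 0.20, adjusted p = 0.033). Of 17 receptors and Janus kinases with miR-29a, 1 was higher, *Jak2* (0.56 ± 0.12, adjusted p = 0.0285). Another 1 was lower, *Il10ra*, the receptor chain upstream of STAT3 (-0.95 ± 0.17, adjusted p = 0.0141). With miR-146a 1 of 15 negative regulators was called, *Socs3*, the feedback inhibitor of STAT3 signalling, which was lower (-0.68 ± 0.15, adjusted p = 0.0484). Single calls in these lists are also little above that background. Of 7 STAT6 targets tested, *Mgl2* and *Ccl24* were higher with miR-7a (1.00 ± 0.18 and 1.89 ± 0.38). With miR-29a 1 was lower and none higher, and *Mrc1* was higher with miR-146a (0.90 ± 0.12, adjusted p = 0.0094). Under vehicle *Mgl2* was also higher with miR-7a (1.17 ± 0.19, adjusted p = 0.0477), as was *Ifit2* (1.85 ± 0.27, adjusted p = 0.0229), against 0.11% of all genes called. The vehicle medians of the response element genes were 0.51, 0.59 and 0.01 with miR-7a, miR-29a and miR-146a, against -0.01, 0.01 and -0.03 for all genes. In the interactions with LPS no gene of that list was called, and its medians were 0.11, 0.12 and -0.64.

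For each of the 9 genes, the 3 genes of most similar pattern were taken over the 32 libraries by Pearson's r of log2(CPM + 1), among 9715 genes averaging 5 CPM or more with no uncertain value. The libraries share LPS and vehicle as their main contrast, so the coefficients are descriptive. The closest were *Oasl2* (r = 0.977), *Lgals9* (0.964) and *Oas1a* (0.951) for *Irf7*, and *Oas1a* (0.957), *Oasl2* (0.957) and *Dhx58* (0.952) for *Irf9*. They were *Znfx1* (0.908), *Treml2* (0.907) and *Usp18* (0.878) for *Stat2*, and *Tap1* (0.893), *Siglec1* (0.89) and *Cdc25b* (0.881) for *Stat3*. For *Irf5* they were *Wash1* (0.884), *Calhm2* (0.867) and *Cd151* (0.866), and for *Stat6* *Fkbp8* (0.866), *Fes* (0.848) and *Mau2* (0.845). *Irf3* was closest to *Preb* (0.831), *Atad3a* (0.823) and *Ube3b* (0.82), *Irf8* to *Alkbh5* (0.824), *Rnf169* (0.809) and *Neurl4* (0.8), and *Irf1* to *Hexim1* (0.683), *Sorl1* (0.661) and *Ptpn1* (0.643). Among the 9 genes themselves, *Irf7* and *Irf9* were closest (0.945), followed by *Irf9* and *Stat2* (0.858).

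On GRCm38, *Irf1* lies at chr11:53770014-53778374, *Irf3* at chr7:44997648-45002848, *Irf5* at chr6:29526625-29541871, *Irf7* at chr7:141262706-141266481 and *Irf8* at chr8:120736358-120756694. *Irf9* lies at chr14:55603571-55610030, *Stat2* at chr10:128270559-128292849, *Stat3* at chr11:100885098-100939540 and *Stat6* at chr10:127642986-127660957. *Irf7* and *Stat3* are on the minus strand and the others on the plus strand. On the opposite strand *Irf1* overlaps *Gm17334*, *Irf3* overlaps *Bcl2l12*, *Irf5* overlaps *Tnpo3*, *Irf7* overlaps *Phrf1*, *Stat3* overlaps *Stat5a* and *Stat6* overlaps *Nab2*. Whether the authors' counting used strand is not given in the sources used here.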

How the data were processed

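Total RNA of BV-2 cells was depleted of ribosomal RNA, and the authors quantified genes on GRCm38 with nf-core rnaseq. The deposited table holds estimated counts that lost their decimal marks. The marks were restored by weighing up to 3 lost decimals for each value from its last digits, its size and the level of the gene in the other libraries. Most weight went to the level in the same group, less to the same LPS or vehicle condition and least to the whole table. The groups later compared thus entered the reading of each value, and how far this narrowed the spread within groups was not tested. Genes whose libraries then varied far less than counting allows were read as whole, a step added after the data were seen. Values under a posterior of 0.9 (1.33% of values above 0) left their gene out of that comparison. All 9 genes had posteriors of at least 0.986. Of restored values of 50 or more, leaving out those that end within 30 thousandths of a whole number, 8.41% had under 3 decimals, against 9.91% by chance.

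The main test was limma-voom on rounded restored counts (limma 3.58.1, edgeR 4.0.16, R 4.3.3), following the study's stated filterByExpr, TMM and limma/edgeR per pair of groups, with Benjamini-Hochberg adjustment over all genes tested. edgeR's quasi-likelihood test and DESeq2 1.42.0 were among the alternatives. In all 13 comparisons were made for each gene, 10 pairs and 3 interactions. The p-values measure the spread between the 4 libraries of a group.

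Same-numbered libraries were taken as paired where each pair's deviations from the group means correlated above 0.1, which held in 6 of 10 pairs of groups (0.144 to 0.555). Named genes were all 9 members, the called family genes, up to 3 called genes per direction of each list by smallest adjusted p, and the 3 most similar genes per member. Some genes that this rule names are not reported here. The members and lists were chosen with earlier results of these data known.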

Additional observations from a re-analysis of the deposited data

Results flagged for a closer look

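In groups of 4 libraries, a highest or lowest library was examined where its gap to the nearest library exceeded Dixon's 95% critical value as a share of the group's range. Of 72 groups (9 genes in 8 groups) 3 had such a library, and chance gives about 3.6. In LPS_miR-146a, replicate 4 was at 73.6 CPM for *Irf5*, below the other 3 at 87.6 to 90.2 CPM, and at 22 CPM for *Irf9*, below the other 3 at 43.3 to 47.2 CPM. In LPS_scramble, replicate 2 was at 140 CPM for *Stat3*, above the other 3 at 110 to 111 CPM.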

How the results depend on the processing

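The 117 results (9 genes in 13 comparisons) were recomputed under the alternatives. A minimum posterior of 0.99 left 3 *Irf7* results of miR-29a without a value, and VEH_miR-7a replicate 1 alone was fitted in 3 comparisons. No called value changed sign, but some uncalled ones did, such as *Irf7* in LPS_miR-146a versus LPS_scramble (from -0.35 to 0.62 with decimals restored from gene levels alone). Relative log expression factors, computed in edgeR, were used in place of TMM as an alternative. This setting, TMM without structural RNA genes and edgeR's quasi-likelihood test each left 117 of 117 on the same side of the threshold. In LPS_miR-7a versus LPS_scramble, 1 gene instead of 0 was called by DESeq2, with a minimum posterior of 0.99 and with all 8 groups in 1 fit. DESeq2 also called 1 instead of 0 for miR-29a (*Stat2*) and for miR-146a (*Irf3*) under vehicle. The shares of all genes called by these alternatives are not given here. With decimals restored from gene levels alone, a rule that by construction draws each value toward the level of the gene over the whole table, 6 calls were lost (*Irf3* and *Irf7* in scramble cells, *Irf7* and *Stat2* in miR-29a cells, *Irf7* in miR-146a cells and *Stat2* between LPS_miR-29a and LPS_scramble), and 0 instead of 1 gene was called in LPS_miR-29a versus LPS_scramble. With VEH_miR-7a replicate 1 alone, chosen after seeing the data, 2 instead of 4 genes were called in LPS_miR-7a versus VEH_miR-7a. The causes of the other changes were not tested.

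With the replicate block, under LPS 4 genes instead of 0 were called for miR-7a, 3 instead of 1 for miR-29a and 1 instead of 0 for miR-146a, and 1 instead of 0 for miR-29a under vehicle. The block left the number of calls in the other 9 comparisons as it was. In 4 of the 10 pairs of groups the lowest correlation was under 0.1 and the libraries were not taken as paired (correlations from -0.0846 to 0.366). Even so, in LPS_miR-146a versus VEH_miR-146a each of the 4 libraries matched best the one of its own number.

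Leaving out 1 library gave 5 to 6 calls for LPS versus vehicle in scramble cells, 4 to 4 with miR-7a, 5 to 6 with miR-29a and 2 to 4 with miR-146a. Against LPS_scramble it gave 0 to 1 for miR-7a, 1 to 1 for miR-29a and 0 to 0 for miR-146a, and against VEH_scramble 0 to 0, 0 to 0 and 0 to 1. The interactions gave 0 to 0. The lowest restored count of the 9 genes was 10, for *Irf3*, so depth limits that gene most.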
